A study of Mus musculus with 18 samples.

Results

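The endocannabinoid receptor gene and the genes of its lipid ligands' metabolism were followed in mouse striatum as 9 transcripts chosen by name, of 29942 gene names in the table. They were Cnr1 and Cnrip1, Dagla and Daglb, Mgll, Abhd6 and Abhd12, and Napepld and Faah. All 9 were found, and all 9 had a mean of at least 1 FPKM (sequenced fragments scaled to transcript length and to library size), the level above which genes were tested. PolyA RNA was sequenced from the striatum of both hemispheres, dissected dorsal to the anterior commissure, of 18 siblings. The animals, of strain 129Sv/Jae S4, were matched for age and sex and housed in groups. They formed 6 groups of 3: vehicle mice injected intraperitoneally with saline and sampled on day 1, 7 or 21, and mice injected intraperitoneally with D-amphetamine hemisulfate in saline, 7 mg/kg in total per day at 10 ml/kg, and sampled on the same days. Neither an age nor a sex is given for the mice in the labels. The series title ties the drug to repetitive behaviours, and the comparisons address whether these transcripts depend on the drug and on the day.

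Endocannabinoids are lipids that a postsynaptic neuron makes on demand and that act backwards on the CB1 receptor of the presynaptic terminal, where they lower transmitter release. In the striatum the receptor is made by the projection neurons and by some interneurons, and it also sits on terminals that arrive from cortex. The lipid 2-AG (2-arachidonoylglycerol) is made by diacylglycerol lipases and broken down by monoacylglycerol lipase, ABHD6 and ABHD12, whereas anandamide can be released by NAPE-PLD and is broken down by FAAH.

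The tissue carried the striatal signature in all libraries. Of 10 markers of striatal projection neurons none was listed at 0 in any library, with Ppp1r1b at a mean of 1142 FPKM, Penk at 1232 and Drd2 at 131. Cortical glutamatergic markers were uneven, and Slc17a7 ran from 1.29 to 48.4 FPKM between libraries. The drug response was visible in Fos, an immediate-early gene, at 4.74 FPKM over the saline libraries and 21.6 over the amphetamine libraries (limma adjusted p = 4.91e-05 for the mean of the 3 days). Fos, Btg2 and Arc were taken as a check of the drug with earlier results of these data known, so their passing is no independent evidence. Of these 3 genes 1 passed on day 1, 2 on day 7 and 0 on day 21. All 3 passed over the mean of days. Their log2 differences were 1.22 to 1.87 on day 1, 1.55 to 2.26 on day 7 and 1.29 to 1.82 on day 21. A gene that did not pass on a single day is thus not shown to be unchanged. FPKM sums ran from 533020 to 682270, the number of reads was unknown, and in bulk tissue fewer cells of a type and less RNA per cell cannot be told apart.

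FPKM are scaled to transcript length, so the levels of the 9 genes can be set side by side. Abhd12 was the most abundant, at 155 ± 8.86 FPKM (SD, n = 18), above the mean of 98.8% of all gene names. Cnr1 followed at 85.6 ± 18.996 and Mgll at 42.0 ± 4.29. Dagla stood at 17.02 ± 2.29, Abhd6 at 14.04 ± 0.906 and Cnrip1 at 12.7 ± 1.71, and these 3 had overlapping ranges. Dagla exceeded Abhd6 in 16 of 18 libraries and Abhd6 exceeded Cnrip1 in 13 of 18. Daglb was at 6.52 ± 0.628 FPKM, Faah at 3.32 ± 0.523 and Napepld at 1.46 ± 0.218. Every other pair of neighbours in this order was separated in all 18 libraries, although the lowest Faah value, 1.934, lay just above the highest Napepld value, 1.925. Cnr1 varied most, with a coefficient of variation of 22.2% over the libraries, against 5.73% for Abhd12 and 6.45% for Abhd6.

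**Figure D1:**
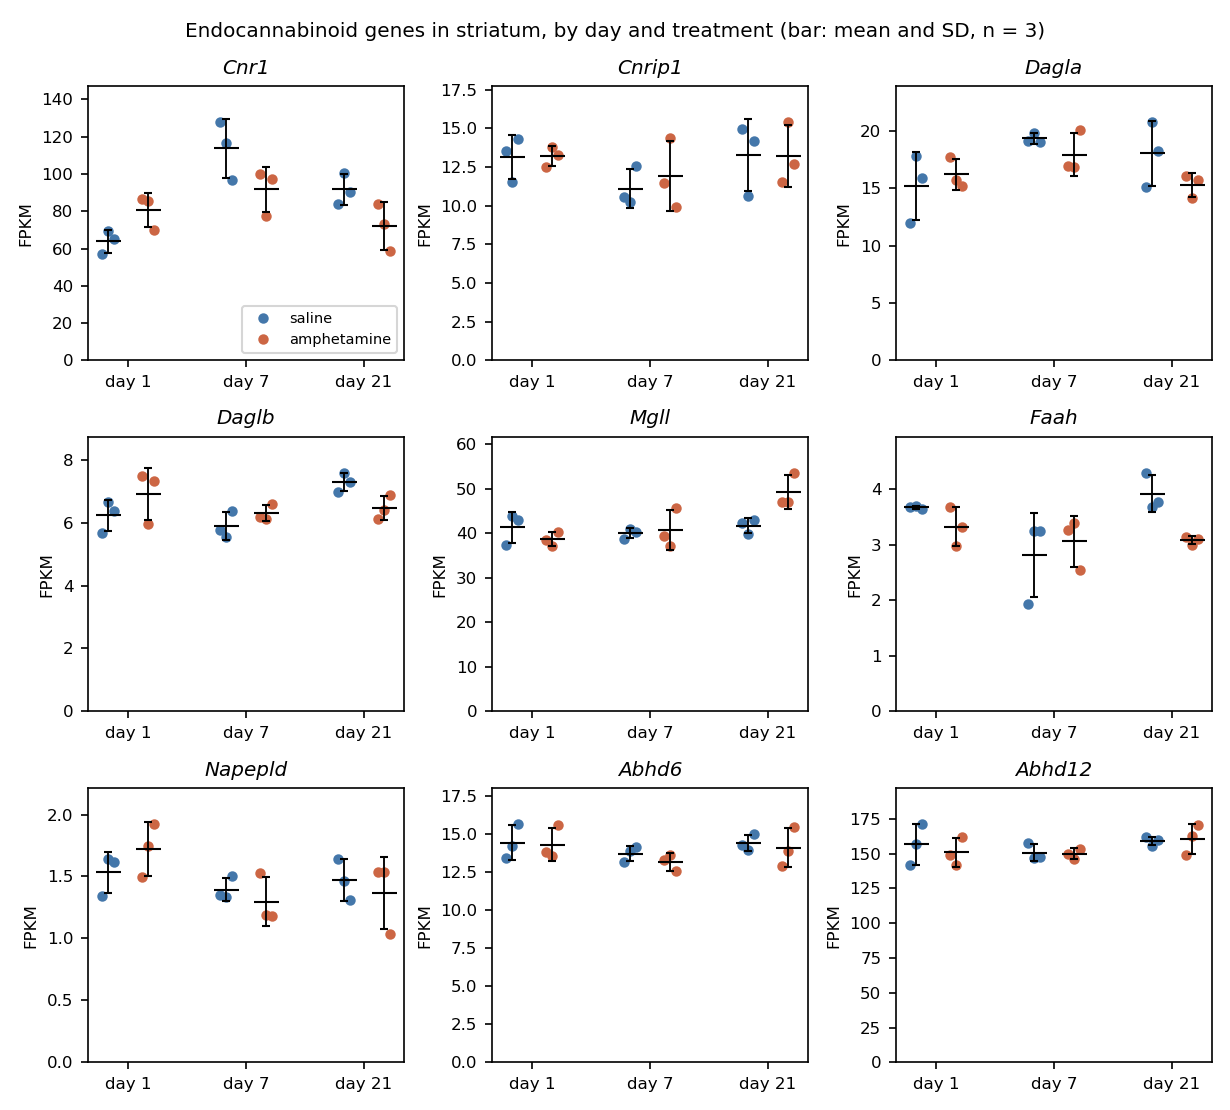
FPKM (y axis, from 0) of the 9 genes on days 1, 7 and 21 (x axis); each point is 1 mouse, blue for saline and orange for amphetamine, and bars give the mean and SD of 3 mice. Cnr1 runs from 57.1 to 128 FPKM and is highest in saline mice of day 7, Mgll is highest in amphetamine mice of day 21, and Abhd12 and Abhd6 stay within narrow ranges.

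With amphetamine, none of the 9 genes passed the test on any single day, nor over the mean of the 3 days. The test was limma on log2(FPKM + 1) with p values adjusted by the Benjamini-Hochberg method over 13975 genes. On day 1 the threshold of 0.05 was passed by 0 of 9 members and by 0.00716% of all tested genes; at an unadjusted p it was passed by 1 member, Cnr1, and by 7.25% of all. On day 7 the counts were 0 of 9 against 0.0215%, and 0 of 9 against 4.92% unadjusted. On day 21 they were 0 of 9 against 0%, and 2 of 9, Cnr1 and Mgll, against 5.50% unadjusted. Over the mean of days they were 0 of 9 against 0.122%, and 0 of 9 against 5.36% unadjusted. The 6 libraries of a day fell into groups that did not overlap for 1 of 9 members on day 1 (10.6% of all tested genes), for 0 of 9 on day 7 (10.3%) and for 4 of 9 on day 21 (12.3%). Those 4 were Mgll, with the amphetamine mice above, and Cnr1, Daglb and Faah, with the amphetamine mice below. The 9 genes had median log2 differences of 0.010, −0.0080 and −0.067 for days 1, 7 and 21, beside 0.047, 0.0036 and −0.020 over all tested genes.

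**Figure D2:**
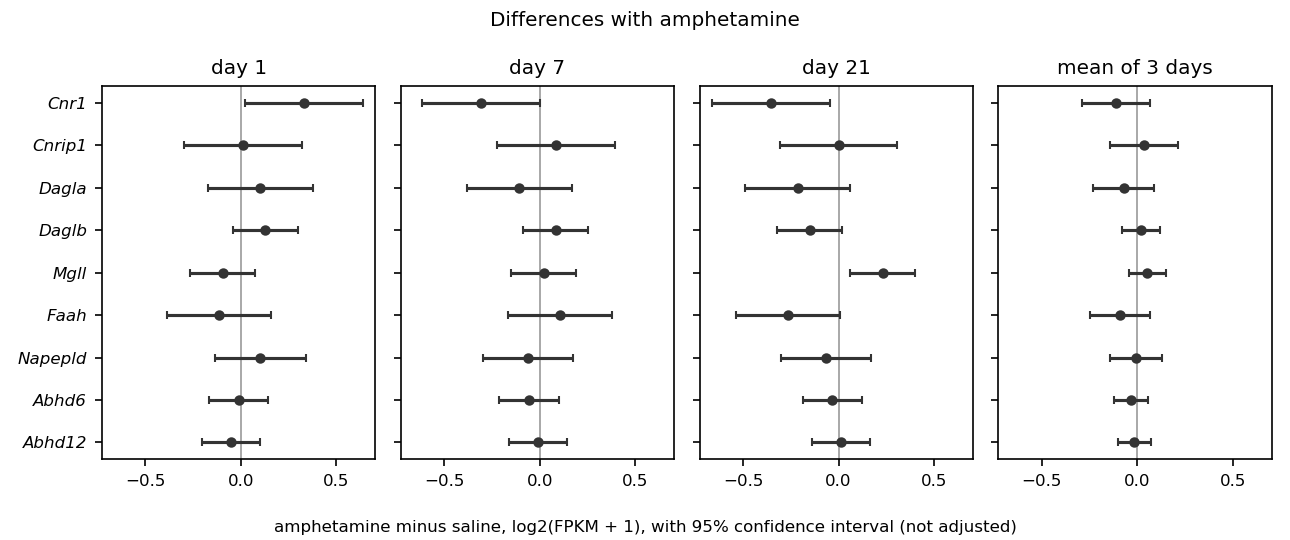
Difference between amphetamine and saline mice in log2(FPKM + 1) (x axis) for each gene (y axis) on each day and over the mean of the days; points are estimates from limma and bars their 95% confidence intervals, not adjusted for the number of genes. The Cnr1 interval lies above 0 on day 1 and below 0 on day 21, the Mgll interval lies above 0 on day 21, and the remaining intervals include 0.

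Cnr1 encodes the CB1 cannabinoid receptor, which couples to inhibitory G proteins. In saline mice it was listed at 57.1, 69.3 and 65.2 FPKM on day 1, at 128, 116 and 96.8 on day 7, then 84.1, 101 and 90.2 on day 21. Every saline mouse of days 7 and 21 thus lay above every saline mouse of day 1. In amphetamine mice the values were 86.6, 85.5 and 70.0 on day 1, 99.9, 77.7 and 97.5 on day 7, then 84.0, 73.2 and 58.8 on day 21. The amphetamine groups of the 3 days overlapped one another.

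The estimated difference between the treatments was positive on day 1 and negative on days 7 and 21, and passed the test on none of them. On day 1 Cnr1 was 0.33 ± 0.14 (SE) higher with amphetamine on the log2(FPKM + 1) scale (95% interval 0.022 to 0.64, limma adjusted p = 0.674), and the groups did not overlap. On day 7 it was lower, by −0.31 ± 0.14 (interval −0.62 to 0.0018, limma adjusted p = 1), with 1 saline mouse among the amphetamine values, and by −0.19 without amphetamine replicate 2. On day 21 the difference was −0.35 ± 0.14 (interval −0.66 to −0.046, limma adjusted p = 0.869), again without overlap, and −0.22 without amphetamine replicate 3. The test of the treatment by day interaction gave an unadjusted p of 0.00747 in limma for Cnr1 (adjusted p = 0.773). Subtracting the effect of day 1 from that of day 21 gave −0.68 ± 0.20 (SE, limma adjusted p = 0.456), and from that of day 7 −0.64 ± 0.20 (limma adjusted p = 0.915), and 0 of 9 members passed for any such pair of days, as did 0% of all genes. Of the 9 members 0 passed the interaction test, as did 0% of all genes, and 2, Cnr1 and Mgll, had an unadjusted p under 0.05, against 6.25% of all.

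Among saline mice the days did not pass the test for Cnr1 either. Day 1 did not overlap with the later days, and days 7 and 21 overlapped. Cnr1 had the ninth smallest p of 13975 genes for a day effect in saline mice (rank 9, unadjusted p = 1.98e-04, limma adjusted p = 0.308). It was 0.82 ± 0.14 (SE) higher on day 7 than on day 1 (limma adjusted p = 0.151) and 0.51 ± 0.14 higher on day 21 than on day 1 (limma adjusted p = 0.809). In means this was 63.9 ± 6.21 FPKM (SD, n = 3) on day 1, 114 ± 15.7 on day 7 and 91.7 ± 8.41 on day 21. With amphetamine the means were 80.7 ± 9.26, 91.7 ± 12.2 and 72.0 ± 12.6 FPKM, and the day effect had an unadjusted p of 0.0847 (limma adjusted p = 0.492). The amphetamine comparison of each day uses these saline mice as its controls, so the signs above and the saline day comparison share the same libraries. In either treatment, no library of days 7 and 21 had a label number in the range of day 1. Only saline replicate 1 of day 1 lay outside that range. Day 1 and the label range can be told apart only through this mouse, and what the number stands for is not given. With the range in the fit, Cnr1 in saline mice was 1.00 higher on day 7 and 0.73 higher on day 21 than on day 1.

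Marker levels of other cell types are given for the same groups as counts of directions, since no marker gene passed the limma threshold in these comparisons. Of the projection neuron markers, 8 of 10 were higher on day 7 than on day 1 in saline mice (median 0.16 on the log2 scale, −0.012 over all tested genes), and their summed level ran from 3513 to 3934 FPKM on day 1 and from 3948 to 4225 on day 7. All 6 tested cortical glutamatergic markers were lower on day 7 (median −0.44), where the sum over the 10 listed ran from 10.6 to 22.3 FPKM against 13.5 to 48.2 on day 1, with Emx1 listed at 0 in 1 library of day 7. Interneuron markers were lower in 6 of 8 (median −0.15), oligodendrocyte markers in 9 of 10 (median −0.14) and choroid plexus and ependymal markers in 6 of 6 (median −0.35), while endothelial and mural markers were higher in 10 of 10 (median 0.23). Astrocyte markers were lower in 7 of 10 (median −0.045) and microglia markers in 8 of 10 (median −0.031). With amphetamine on day 1, choroid plexus and ependymal markers were higher in 6 of 6 (median 0.50), with sums over 10 listed genes of 41.8 to 112 FPKM against 19.9 to 30.6 (2 of the 10 at 0 in a saline library), and oligodendrocyte markers in 10 of 10 (median 0.24), while cortical markers were lower in 5 of 6 (median −0.34). On that day 64.0% of all tested genes were higher with amphetamine (median 0.047). Astrocyte markers were higher in 8 of 10, and microglia, endothelial and mural, and projection neuron markers in 7 of 10 each. Of the interneuron markers 4 of 8 were higher. On day 7 with amphetamine, choroid plexus and ependymal markers were higher in 6 of 6 (median 0.46), and endothelial and mural markers (median −0.078) and oligodendrocyte markers (median −0.062) were each lower in 9 of 10. Projection neuron markers were lower in 7 of 10 (median −0.071), and cortical markers in 3 of 6. Interneuron markers were higher in 6 of 8 (median 0.092), microglia markers in 7 of 10 (median 0.021) and astrocyte markers in 6 of 10 (median 0.034). Of all tested genes 51.5% were higher on day 7. On day 21 with amphetamine, 6 of 6 cortical markers (median −0.17), 8 of 10 oligodendrocyte markers (median −0.092) and 7 of 10 projection neuron markers (median −0.055) were lower, where 42.7% of all tested genes were higher. Choroid plexus and ependymal markers were higher in 4 of 6 (median 0.20) and interneuron markers in 5 of 8. Astrocyte and microglia markers were higher in 5 of 10 each, and endothelial and mural markers in 4 of 10. The part of the markers in the Cnr1 values was not tested. Over the 18 libraries Cnr1 had a Pearson r of 0.295 with the projection neuron list and −0.222 with the cortical list (permutation adjusted p = 0.546 and 0.603, Spearman rho 0.265 and −0.267, adjusted p = 0.628 for both, r 0.167 and −0.354 without the 2 libraries farthest from the median).

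RefSeq places 3 starts of Cnr1 in GRCm38.p6, and a gene-level FPKM does not separate them. The bases before the most upstream start are shown because Cnr1 was the member that varied most, next to those of Mgll, the member with the smallest p for a day effect under amphetamine. The files themselves were made on another build, mm9, so these positions serve for the sequences alone. Both run 5′ to 3′ on the + strand, chr4:33924014-33924263 for Cnr1 and chr6:88724162-88724411 for Mgll, each 250 bases up to the base before the start. Capitals mark the GC box GGGCGG on either strand in Cnr1 and the E-box CACGTG in Mgll.
Cnr1: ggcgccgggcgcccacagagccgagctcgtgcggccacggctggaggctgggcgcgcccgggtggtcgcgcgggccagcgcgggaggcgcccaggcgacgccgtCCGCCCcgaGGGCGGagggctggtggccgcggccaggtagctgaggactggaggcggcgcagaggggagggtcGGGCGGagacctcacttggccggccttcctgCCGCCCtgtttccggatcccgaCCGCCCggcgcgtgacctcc
Mgll: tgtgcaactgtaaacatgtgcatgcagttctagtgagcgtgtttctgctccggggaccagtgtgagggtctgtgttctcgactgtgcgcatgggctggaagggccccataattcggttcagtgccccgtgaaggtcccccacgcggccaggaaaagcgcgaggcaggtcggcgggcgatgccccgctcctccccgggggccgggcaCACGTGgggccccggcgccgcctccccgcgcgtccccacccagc

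Windows of 300 bases, 250 before and 50 after a start, were held for 7 of the 9 members, 11 windows in all, the missing entries being Dagla and Abhd12. The GC box occurred in 7 of the 11 windows, of Cnr1, Cnrip1, Mgll, Faah and Abhd6, and in 35.7% of all 32851 windows. The Egr site GCGNGGGCG occurred in 3 windows, of Mgll and Faah, against 5.55% of all, and the E-box in 2, of Cnr1 and Mgll, against 7.15%. The cAMP response element TGACGTCA, the AP-1 site TGANTCA and the TATA box TATAAA occurred in 0 of 11 windows, against 1.79%, 7.81% and 13.6% of all windows. All motifs were sought on both strands, the Egr site can share bases with a GC box, some windows of a gene overlap, and a match is a description of letters. GC content ran from 46.3% to 76.3% in the members' windows, with a median of 62.3% against 52.7% over all windows.

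Cnrip1 encodes a protein that binds the tail of the CB1 receptor. It ran from 9.94 to 15.4 FPKM, with group means of 11.1 to 13.3 FPKM. The lowest and the highest value belonged to amphetamine mice of days 7 and 21. Amphetamine and saline mice differed in Cnrip1 by 0.010 on the log2 scale on day 1, by 0.086 on day 7 and by −1.29e-04 on day 21, with an interval of −0.15 to 0.21 for the mean of days. Differences of this gene on days 1 and 21 took the other sign under other scalings.

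Dagla and Daglb encode the diacylglycerol lipases that make 2-AG, the former being the main form at striatal synapses. Dagla was listed in saline mice at 11.99, 17.8 and 15.9 FPKM on day 1, 19.1, 19.9 and 19.04 on day 7, then 15.1, 20.8 and 18.3 on day 21. With amphetamine it stood at 17.8, 15.7 and 15.2 on day 1, 16.9, 16.8 and 20.1 on day 7, then 16.1, 14.1 and 15.7 on day 21. The saline mice of day 7 all lay above those of day 1, and the amphetamine mice of day 21 all lay below those of day 7. With amphetamine Dagla differed by 0.10 ± 0.13 (SE) on day 1, by −0.11 ± 0.13 on day 7 and by −0.21 ± 0.13 on day 21 (limma adjusted p = 0.811, 1 and 0.874). Its order of signs was that of Cnr1, with intervals that all included 0. The day 1 difference of Dagla was −0.051 without saline replicate 1 of that day.

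Daglb was the lower of the lipases in all libraries. In saline mice it stood at 5.67, 6.65 and 6.38 FPKM on day 1, 5.76, 5.54 and 6.38 on day 7, then 6.99, 7.59 and 7.31 on day 21, so that day 21 lay above both earlier days. With amphetamine it stood at 7.47, 5.96 and 7.31 FPKM on day 1, 6.19, 6.11 and 6.59 on day 7, then 6.11, 6.42 and 6.88 on day 21. On day 21 it differed by −0.15 ± 0.079 (SE) with amphetamine (interval −0.32 to 0.019, limma adjusted p = 0.869), and the groups did not overlap. In saline mice it was 0.27 ± 0.079 higher on day 21 than on day 7 (limma adjusted p = 0.882). Microglia markers were also higher in saline mice of day 21 than of day 7, in 10 of 10 genes (median 0.18, against 0.037 over all tested genes). Their sum ran from 172 to 195 FPKM on day 21 and from 147 to 175 on day 7. Cortical markers (5 of 6, median 0.73) and choroid plexus and ependymal markers (6 of 6, median 0.59) were higher too. So were oligodendrocyte (9 of 10, median 0.079), interneuron (6 of 8, median 0.12) and astrocyte markers (6 of 10, median 0.073). Endothelial and mural markers were higher in 5 of 10, and projection neuron markers were lower in 8 of 10 (median −0.058). The part of the markers in the Daglb and Faah values was not tested. Daglb had the highest r of any member with any marker list, 0.676 with microglia markers (Spearman rho 0.651, permutation adjusted p = 0.0857 and 0.156 over 72 relations, 0.577 on values centred on group means, 0.610 without the 2 libraries farthest from the median).

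Mgll encodes monoacylglycerol lipase, which accounts for most 2-AG breakdown in brain. It was listed in saline mice at 37.4, 43.9 and 42.9 FPKM on day 1, 38.8, 41.1 and 40.2 on day 7, then 42.3, 39.9 and 43.1 on day 21. In amphetamine mice it stood at 38.6, 37.1 and 40.3 FPKM on day 1, 39.3, 37.2 and 45.8 on day 7, then 47.1, 47.0 and 53.6 on day 21. The 3 amphetamine mice of day 21 were the highest of all 18. On that day Mgll was 0.23 ± 0.080 (SE) higher with amphetamine on the log2 scale (interval 0.060 to 0.40, limma adjusted p = 0.869), or 49.2 ± 3.81 against 41.8 ± 1.64 FPKM (SD, n = 3). On days 1 and 7 the differences were −0.095 and 0.021 (limma adjusted p = 0.736 and 1).

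Under amphetamine Mgll was 0.34 ± 0.080 (SE) higher on day 21 than on day 1 (limma adjusted p = 0.352, rank 30 by p) and 0.27 ± 0.080 higher than on day 7 (limma adjusted p = 0.283), without overlap in either case. In the first of these comparisons oligodendrocyte markers were lower in 9 of 10 (median −0.36), astrocyte markers in 8 of 10 (median −0.17) and choroid plexus and ependymal markers in 5 of 6 (median −0.18), while endothelial and mural markers were higher in 9 of 10 (median 0.12) and cortical markers in 4 of 6 (median 0.38). Projection neuron markers were lower in 6 of 10 (median −0.051), and interneuron (5 of 8, median 0.13) and microglia markers (6 of 10, median 0.042) were higher. In the second, cortical markers were higher in 5 of 6 (median 0.53), choroid plexus and ependymal markers in 6 of 6 (median 0.23) and microglia markers in 9 of 10 (median 0.13). Endothelial and mural markers were higher in 7 of 10 (median 0.063) and oligodendrocyte markers in 6 of 10. Projection neuron (median −0.079) and astrocyte markers (median −0.024) were lower in 7 of 10 each, and interneuron markers in 5 of 8. Over all tested genes the medians were −0.033 in the first and 0.013 in the second. No marker gene passed in either, and the part of the markers in the Mgll values was not tested. In saline mice the Mgll differences between the same days were 0.014 and 0.059, and the interaction test gave an unadjusted p of 0.0350 (limma adjusted p = 0.773). For a day effect in amphetamine mice 0 of 9 members passed, against 0% of all tested genes, and 1, Mgll, had an unadjusted p under 0.05, against 11.2% of all. In saline mice 0 of 9 passed, against 0.00716%, and 4, Cnr1, Dagla, Daglb and Faah, had an unadjusted p under 0.05, against 5.95% of all. Between single days 0 of 9 passed in saline mice, against 0.00716% for day 7 minus day 1 and 0% for the pairs with day 21, and 0 of 9 in amphetamine mice, against 0%. In saline mice the groups were apart for 3 of 9 members between days 1 and 7 (9.29% of all tested genes), for 2 of 9 between days 1 and 21 (10.5%) and for 2 of 9 between days 7 and 21 (10.2%). In amphetamine mice the counts were 0 of 9 (14.2%), 1 of 9 (15.7%) and 2 of 9 (2234 of the 13975 genes, 16%).

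Abhd6 and Abhd12 encode serine hydrolases that take the remainder of 2-AG breakdown, and ABHD12 is also known for hydrolysing lysophosphatidylserine. Abhd6 ran from 12.6 to 15.7 FPKM and Abhd12 from 142 to 171, with group means of 13.2 to 14.5 and of 149.8 to 161 FPKM. Their groups overlapped on every day. The intervals for the mean of days were −0.12 to 0.057 for Abhd6 and −0.10 to 0.072 for Abhd12 on the log2 scale, the narrowest among the 9. Mgll made up 19.9% ± 1.24 (SD, n = 18) of the summed FPKM of these 3 hydrolase genes, and 22.0% ± 0.806 (SD, n = 3) in amphetamine mice of day 21.

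The anandamide genes were the lowest of the set. Faah, which encodes fatty acid amide hydrolase, was listed in saline mice at 3.68, 3.71 and 3.64 FPKM on day 1, 1.93, 3.25 and 3.26 on day 7, then 4.30, 3.69 and 3.77 on day 21. With amphetamine it stood at 3.68, 2.98 and 3.33 FPKM on day 1, 3.26, 3.40 and 2.54 on day 7, then 3.15, 3.00 and 3.11 on day 21. The day 21 groups did not overlap, and the difference was −0.27 ± 0.13 (SE; interval −0.54 to 0.0050, limma adjusted p = 0.869). In saline mice Faah was 0.39 ± 0.13 higher on day 21 than on day 7 (limma adjusted p = 0.882), or 0.21 without saline replicate 1 of day 7. Napepld, which encodes the phospholipase D that releases anandamide from its membrane precursor, ran from 1.03 to 1.93 FPKM. Its differences with amphetamine were 0.10, −0.061 and −0.067 on days 1, 7 and 21, all groups overlapping. At these levels log2(FPKM + 1) understates a change.

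Some of the 9 genes had correlated values between mice. Of the 36 pairs 4 passed a permutation test of Pearson's r over the 18 libraries after adjustment over the pairs. The share of other gene pairs that would pass was not computed, so this count is not shown to be particular to these genes. Libraries were permuted across the groups, so differences between groups also enter r. Cnr1 and Dagla had an r of 0.762 and a Spearman rho of 0.781 (permutation adjusted p = 0.0072 and 0.009), 0.507 on values centred on group means (adjusted p = 0.129), and 0.689 without the 2 libraries farthest from the median of Cnr1 (adjusted p = 0.0621). Cnrip1 and Dagla had an r of −0.697 and a rho of −0.744 (permutation adjusted p = 0.0212 and 0.011), −0.671 centred (adjusted p = 0.0369) and −0.603 without the 2 libraries (adjusted p = 0.071). The permutation did not allow for the group means removed from centred values, so the p values of centred r tend to be too small throughout. The receptor gene and that of its binding protein had an r of −0.603 and a rho of −0.618 that did not pass (permutation adjusted p = 0.06 and 0.0531), and −0.551 without the 2 libraries.

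Abhd6 and Abhd12 had an r of 0.683 and a rho of 0.624 (permutation adjusted p = 0.0214 and 0.0531), 0.710 centred and 0.563 without the 2 libraries (adjusted p = 0.0317 and 0.107). Mgll and Abhd12 had an r of 0.643 and a rho of 0.649 (permutation adjusted p = 0.0315 and 0.0498), 0.641 centred and 0.662 without the 2 libraries (adjusted p = 0.05004 and 0.0621). The paralogs Dagla and Daglb had an r of 0.190 (permutation adjusted p = 0.651), and Dagla and Mgll, which make and break the same lipid, of −0.030 (permutation adjusted p = 0.941). The 2 libraries left out were those farthest from the median of the first gene named, or of the member for a marker list. They were thus chosen for each gene, and the rest spans less of its range. Over the 16 mice left, 0 of 36 pairs passed, while r of the 4 pairs stayed at 0.563 to 0.689 in size.

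**Figure D3:**
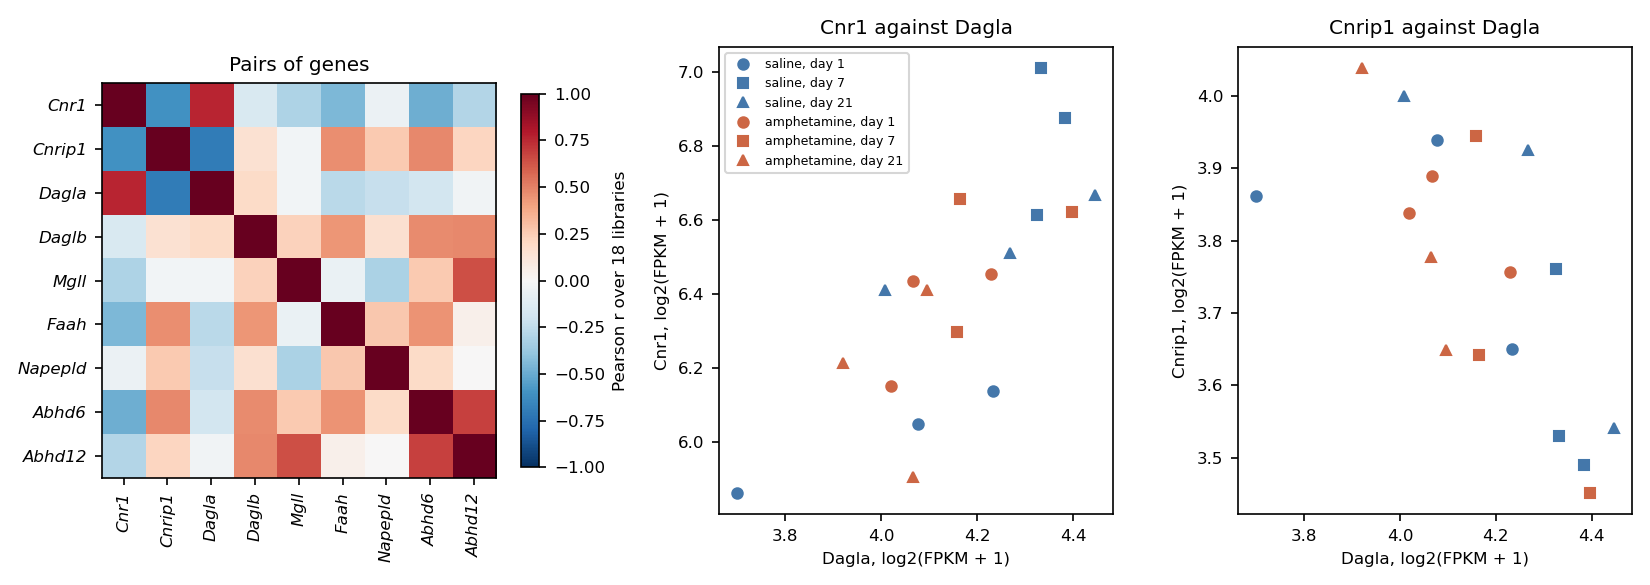
Left, Pearson r of log2(FPKM + 1) over 18 libraries for each pair of genes (colour, −1 to 1); middle and right, Cnr1 and Cnrip1 (y axes) against Dagla (x axes), 1 point per mouse, with colour for treatment and shape for day. Cnr1 is high where Dagla is high (r = 0.762) and Cnrip1 is low there (r = −0.697).

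Relations with the marker lists did not pass the test. Cnrip1 had an r of −0.667 with projection neuron markers and 0.658 with interneuron markers (permutation adjusted p = 0.0857 for both, Spearman rho −0.618 and 0.651, adjusted p = 0.184 and 0.156, −0.600 and 0.595 without the 2 libraries). Dagla had an r of 0.520 with projection neuron markers (permutation adjusted p = 0.275, Spearman rho 0.410, adjusted p = 0.478, r 0.393 without the 2 libraries). Of the 72 relations between members and 8 marker lists 0 passed.

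The genes most alike over the 18 libraries, out of 9451 with a mean FPKM of at least 5 (9452 for Faah and Napepld), were listed by Pearson's r without a test. For Cnr1 they were Slc16a6 (0.931), Gpr155 (0.921) and Ace (0.905). Dab2ip (0.950), Smpd3 (0.944) and Prima1 (0.937) were closest to Dagla, and Arl6ip1 (0.899), Stmn2 (0.890) and Gabra3 (0.874) to Cnrip1. Daglb was closest to Rbm42 (0.867), Atp6v0c (0.866) and Nr2f6 (0.865), and Mgll to BC078436 (0.810), Fjx1 (0.805) and Sept3 (0.803). For Faah the genes were Ebp (0.842), Cd2bp2 (0.814) and Cables2 (0.808), and for Napepld Gm6251 (0.720), Tnip1 (0.718) and Rnf130 (0.708). Mrfap1 (0.865), Rpl35 (0.843) and AK203140 (0.834) were closest to Abhd6, and Snw1 (0.858), Gm6788 (0.846) and Snupn (0.815) to Abhd12. The points share library preparation and tissue make-up.

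The wider pathway was read from 44 further genes in 6 lists, of which 32 reached the level for testing. Of the 32, 0 passed in limma for amphetamine against saline, for the interaction or for a day effect. An unadjusted p under 0.05 was found for 0 of 32 on day 1, 3 of 32 on day 7, 3 of 32 on day 21 and 1 of 32 for the 3 days averaged, beside 7.25%, 4.92%, 5.50% and 5.36% of all tested genes.

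Of 7 genes of other anandamide routes 5 were tested, with Gde1, a glycerophosphodiesterase, the most abundant at 67.3 ± 5.62 FPKM (SD, n = 18). Of 8 other hydrolases and oxygenases 4 were tested, led by Abhd16a at 16.7 ± 1.60 FPKM, while Ptgs2, the cyclooxygenase that oxidises 2-AG, averaged 0.594 FPKM. The 4 carrier genes were all tested, led by Scp2 at 38.9 ± 2.55 FPKM. Of 6 other receptors for these lipids 1, the channel gene Trpv2 (2.55 ± 0.310 FPKM), was tested. Cnr2, which encodes the CB2 receptor, averaged 0.0999 FPKM and Trpv1 0.0049, far below Cnr1. Of 10 genes upstream of 2-AG 9 were tested, led by the metabotropic glutamate receptor gene Grm5 at 88.5 ± 10.9 FPKM. All 9 G protein and interactor genes of the CB1 receptor were tested, led by Gnao1 at 245 ± 8.28 FPKM. Grm5 and Gnao1 differed with amphetamine by −0.058 and −0.032 over the mean of days (limma adjusted p = 0.999 for both).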

How the data were processed

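The deposited table holds FPKM made by the authors, for 29942 gene names in 18 libraries, matched by the number in each header, and 0 further columns. Bowtie and mm9 are named per the submitters' processing notes; no source used here gives versions, the quantifying program, the annotation or how strand was handled. Members and gene lists were chosen with earlier results of these data known, and the members were taken by name.

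The 13975 genes averaging at least 1 FPKM were compared on the log2(FPKM + 1) scale with limma (version 3.58.1, R version 4.3.3), 1 mean per group over all 18 libraries, 12 residual degrees of freedom, a trended prior variance and Benjamini-Hochberg adjustment at 0.05, two-sided. Correlations used 100000 permutations of libraries (numpy version 2.4.6), two-sided, and the fit was tested on simulated data. All 9 members were named, with the 3 genes most alike to each and, in the wider lists, genes past the threshold or else the most abundant gene of each list. Ptgs2, Cnr2 and Trpv1 were named in addition, after their values were seen. Alternatives were another pseudocount, filter and scaling, the replicate block, the range of the label number, single days, and leaving out each library. With 3 mice against 3, a permutation test of a single gene cannot go below 0.1, so none was used. The number of reads behind each FPKM is unknown. In the wider lists 1 gene is not reported here.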

Additional observations from a re-analysis of the deposited data

Results flagged for a closer look

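Cnr1 was singled out because its amphetamine and saline groups were apart in opposite directions on 2 days. On day 1 the 3 amphetamine mice lay above the 3 saline mice (log2 difference 0.33), and on day 21 the 3 amphetamine mice lay below (−0.35). The difference between days was tested as a treatment by day interaction, with an unadjusted p of 0.00747 in limma, which did not pass over all genes (adjusted p = 0.773). A gene picked for opposite order on 2 days will tend to have a small interaction p in the same libraries. This p is therefore no independent evidence of a difference between days. The effect of day 21 minus that of day 1, −0.68 on the log2 scale, lay between −0.80 and −0.55 under the 25 alternatives run, which reuse these libraries.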

How the results depend on the processing

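No member passed under any of the 25 or 26 alternatives run per comparison. Of the pairs of genes, 4 passed over the libraries, 2 on values centred on group means and 0 without the 2 libraries farthest from the median. For centred values the permutation did not allow for the means removed, so the count of 2 rests on p values that tend to be too small. Whether the replicate number shared by the groups pairs the mice could not be settled with 3 mice per group. Correlations of deviations between same-numbered mice of a day ran from −0.085 to 0.14, and those of day 21 were all positive. Of the 18 libraries, 9 were closest to their own number. With the replicate block 0 of 9 members passed in each comparison. Over all genes, 8 against 17 passed over the mean of days, 0 against 3 on day 7 and 0 against 1 for a day effect in saline mice. Over all alternatives the genes past the threshold numbered 1 to 8 on day 1, 0 to 10 on day 7, 0 to 6 on day 21 and 8 to 18 over the mean of days, 0 to 2 for the interaction, 0 to 16 for saline days and 0 to 18 for amphetamine days, the last 2 maxima with the label number range in the fit. Faah and Napepld fell under a filter of 5 FPKM. Cnr1 was 0.25 to 0.43 higher on day 1, and differed by −0.42 to −0.19 on day 7 and −0.47 to −0.22 on day 21, over single libraries left out. Its unadjusted limma p on days 1 and 21 was 0.0967 and 0.0510 with median-of-ratios scaling, and 0.0751 and 0.0613 with quantile normalization. With the label number range it was 0.144 and 0.0310, and with the replicate block 0.0349 and 0.0254.

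Some differences changed sign. Dagla on day 1 was −0.051 when the fit included the label number range. This equals the value without saline replicate 1, the only library of day 1 in another range, so the 2 settings are not separate checks. Cnrip1 was −0.039 on day 1 and 0.020 on day 21 with median-of-ratios scaling, −0.032 and 0.025 with quantile normalization, and 2.64e-04 on day 21 with a pseudocount of 0.1, and Abhd12 was 0.016 on day 7 with quantile normalization. Leaving out single libraries gave, on day 1, −0.051 to 0.22 for Dagla, −0.070 to 0.045 for Abhd6, −0.073 to 0.071 for Cnrip1 and −0.12 to 0.013 for Abhd12. On day 7 it gave −0.063 to 0.082 for Mgll, −0.072 to 0.20 for Faah, −0.046 to 0.20 for Cnrip1 and −0.026 to 0.024 for Abhd12. On day 21 it gave −0.12 to 0.039 for Napepld, −0.097 to 0.025 for Abhd6, −0.14 to 0.089 for Cnrip1 and −0.031 to 0.066 for Abhd12. Over the mean of days the ranges were −0.032 to 0.027 for Napepld, −0.015 to 0.070 for Cnrip1 and −0.039 to 0.0061 for Abhd12. The cause was not tested.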

Other observations

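Ratios of FPKM within a library set the genes of one lipid side by side, as values with no test. Dagla stood at 2.63 ± 0.415 times Daglb (SD, n = 18), with the highest group mean in saline mice of day 7 (3.30 ± 0.301, n = 3) and the lowest in amphetamine mice of day 1 (2.37 ± 0.281). Mgll stood at 2.51 ± 0.449 times Dagla, at 2.07 ± 0.0428 in saline mice of day 7 and at 3.22 ± 0.257 in amphetamine mice of day 21. The last ran from 2.92 to 3.41, against 1.92 to 2.81 in saline mice of day 21. Saline mice of day 1 ran from 2.46 to 3.12 and thus overlapped with them. Faah stood at 2.30 ± 0.434 times Napepld, with group means from 1.97 to 2.67.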
